A study of Caenorhabditis elegans with 24 samples.

Results

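The genes described here are the *col-* genes, the large family of *C. elegans* cuticle collagens that carry a number in place of a mutant body-shape name. They were taken as every gene of the count table whose WormBase symbol begins with *col-* and a digit and which had at least 10 counts in at least 3 of the 24 libraries. Of 156 such genes in the table, 115 met this rule, out of 15256 genes that met the same count minimum. All 115 are protein coding, and they lie on all 6 chromosomes, with 29 on chromosome IV, 27 on V, 20 on X, 15 on II and 12 each on I and III. The minimum was reached by 94 of them in the 18 libraries of the other 3 genotypes, whereas 21 reached it only with the help of the *hsf-1(sy441)* libraries, so that counts in that mutant are also given for the 94 alone.

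mRNA was sequenced from whole animals of 4 genotypes, untreated or heat-shocked, with 3 replicates in each of the 8 conditions. All animals were collected at day 1 of adulthood, about 800 per sample, after growth at 20 °C on HT115 bacteria carrying pL4440, and the heat-shocked ones were kept for 2 h at 34 °C and recovered for 1 h at 20 °C. The genotypes were N2 (the wild type), *hsf-1(sy441)*, which carries a reduction-of-function allele of the heat-shock transcription factor gene, *hsf-1FL*, in which full-length *hsf-1* is over-expressed in neurons from the *rab-3* promoter, and *hsf-1CTD*, in which a C-terminally deleted *hsf-1* is over-expressed in neurons in the same way. The cuticle is made outside the nervous system, so in both transgenic lines the added *hsf-1* is not expected in the cells that make collagen, and each line stands for its own transgene only. The labels do not say whether the replicates were separate cultures, so the P-values measure the spread between these samples.

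The nematode cuticle is an extracellular coat secreted by the underlying hypodermis and built largely of collagens joined by cross-links. It is made afresh at each moult, and individual collagen genes are switched on in waves at set times of each moulting cycle, some only in larvae, some only in the adult or the dauer. Newly made chains are hydroxylated on proline, folded into trimers, trimmed by proteases and cross-linked on tyrosine by an oxidase. Because whole animals were used, a change in the number of cells or animals at a given stage and a change in RNA per cell cannot be told apart.

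Library totals ran from 11215696 to 19794446 counts, with a median of 14946351.5. All *col-* genes together made up 0.717 to 2.59% of the counts in the 18 libraries of the other genotypes and 2.13 to 5.82% in the 6 mutant libraries. The heat-shock genes *hsp-70* and *hsp-16.2* rose by 8.92 and 9.69 in log2(fold-change) over the 4 genotypes (edgeR, adjusted P-values 1.14e-14 and 2.5e-14). Their mean log2 CPM was lowest among heat-shocked libraries in *hsf-1(sy441)* replicate 3, at 7.86. The other heat-shocked libraries had 8.91 to 10.1, and the untreated ones -1.41 to 1.88.

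Levels between genes were compared per length, as CPM (read counts scaled to library size with TMM factors) per kilobase of exon. In untreated N2 the 115 genes spanned a very wide range. Their median level was 2.16 CPM per kb, with quartiles of 0.320 and 17.5, and 43 genes had a mean under 1 while 21 had a mean over 100. The most abundant was *col-119* (WBGene00000693), on chromosome IV at 8978926 to 8979795 of WBcel235, with 1647, 3260 and 2531 CPM per kb in the 3 replicates, or 2479 ± 808 (SD, n = 3). After it came *col-122* at 1391 ± 501, *col-140* at 1333 ± 453, *col-181* at 1030 ± 434, *col-20* at 988 ± 433, *col-8* at 860 ± 409, *col-178* at 702 ± 228 and *col-184* at 695 ± 252 CPM per kb (SD, n = 3 for each). The replicates of each of these 7 genes overlap with those of its neighbours in this order. *col-19*, a marker of the adult cuticle, ranked 12 with 482 ± 181 CPM per kb, and *col-2*, known from the dauer larva, had 71 counts in all 24 libraries and was not a member. At the bottom, *col-52*, *col-90* and *col-88* had no count in any untreated N2 library, where 3 counts would correspond to 0.199 to 0.206 CPM.

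The 8 leading genes held 46.3 to 69.9% of all *col-* counts in a library, so a sum over the family is mostly a sum over these genes. Replicates of a condition differed widely for them. In N2, *col-119* stood at 1228 CPM per kb in heat-shocked replicate 1 but at 4963 and 4776 in replicates 2 and 3, a spread that encloses all 3 untreated N2 values. In *hsf-1FL* and *hsf-1CTD* the untreated replicate 3 was the lowest of its group for *col-119*, with 1460 against 2702 and 2869 and 1363 against 2912 and 2847 CPM per kb.

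**Figure D1:**
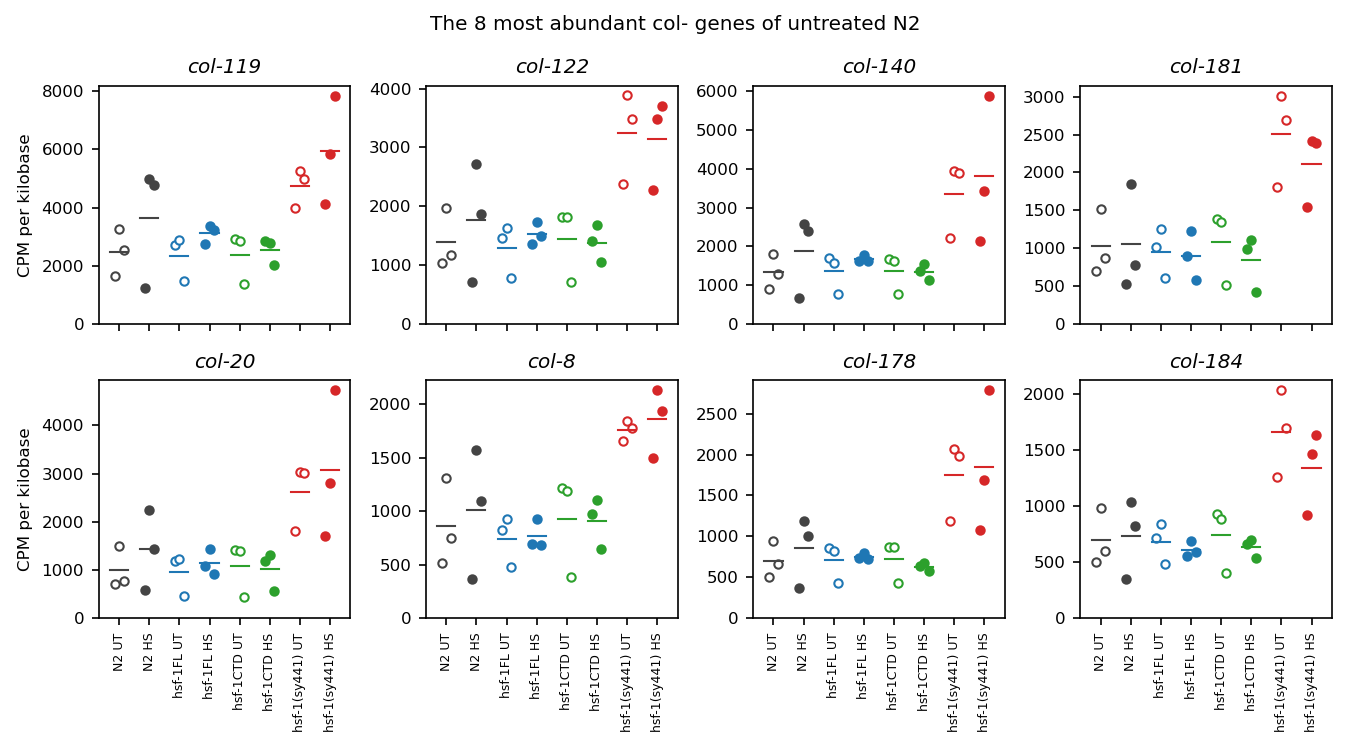
CPM per kilobase (linear axis from 0) of the 8 *col-* genes with the highest mean in untreated N2, in each of the 24 libraries. Open points are untreated (UT) and filled points heat-shocked (HS) replicates, with the mean of 3 as a bar. The mean of *hsf-1(sy441)* is above that of N2 in every panel, although some mutant replicates lie below the highest N2 value. The N2 heat-shocked replicates are widely spread.

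Across libraries, the members varied mainly along a single axis. The first principal component of their log2 CPM held 58.6% of the variance and the second 17.1%. On the first, *hsf-1(sy441)* untreated replicates 2 and 3 and heat-shocked replicate 3 stood apart from the other 21 libraries. In these 3 libraries the median member was 1.87, 2.09 and 2.81 above its untreated N2 mean on the log2 scale. The other *hsf-1(sy441)* libraries had 0.58 (untreated replicate 1), 0.38 (heat-shocked replicate 1) and 0.74 (heat-shocked replicate 2), and the 18 libraries of the other genotypes ranged from -0.31 to 0.45. The number of members with at least 10 counts was 108, 106 and 108 in the 3 libraries, against 66 to 75 in the other *hsf-1(sy441)* libraries and 67 to 88 elsewhere. As these counts also decided membership, they are partly set by it, and over the 94 members they were 87, 88 and 90, against 62 to 69 and 67 to 85. Relative to the highest of the 6 N2 libraries, 40, 52 and 71 members were more than 2 times higher in the 3, against 3, 4 and 21 in the other mutant libraries. Comparisons that use the mutant are therefore given with and without these 3 libraries. As they were picked by their *col-* levels, the values without them are a description. The components, the medians and the counts above N2 cover all 115 members. Of these, 21 met the count minimum only with the mutant, so these values are partly set by it.

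**Figure D2:**
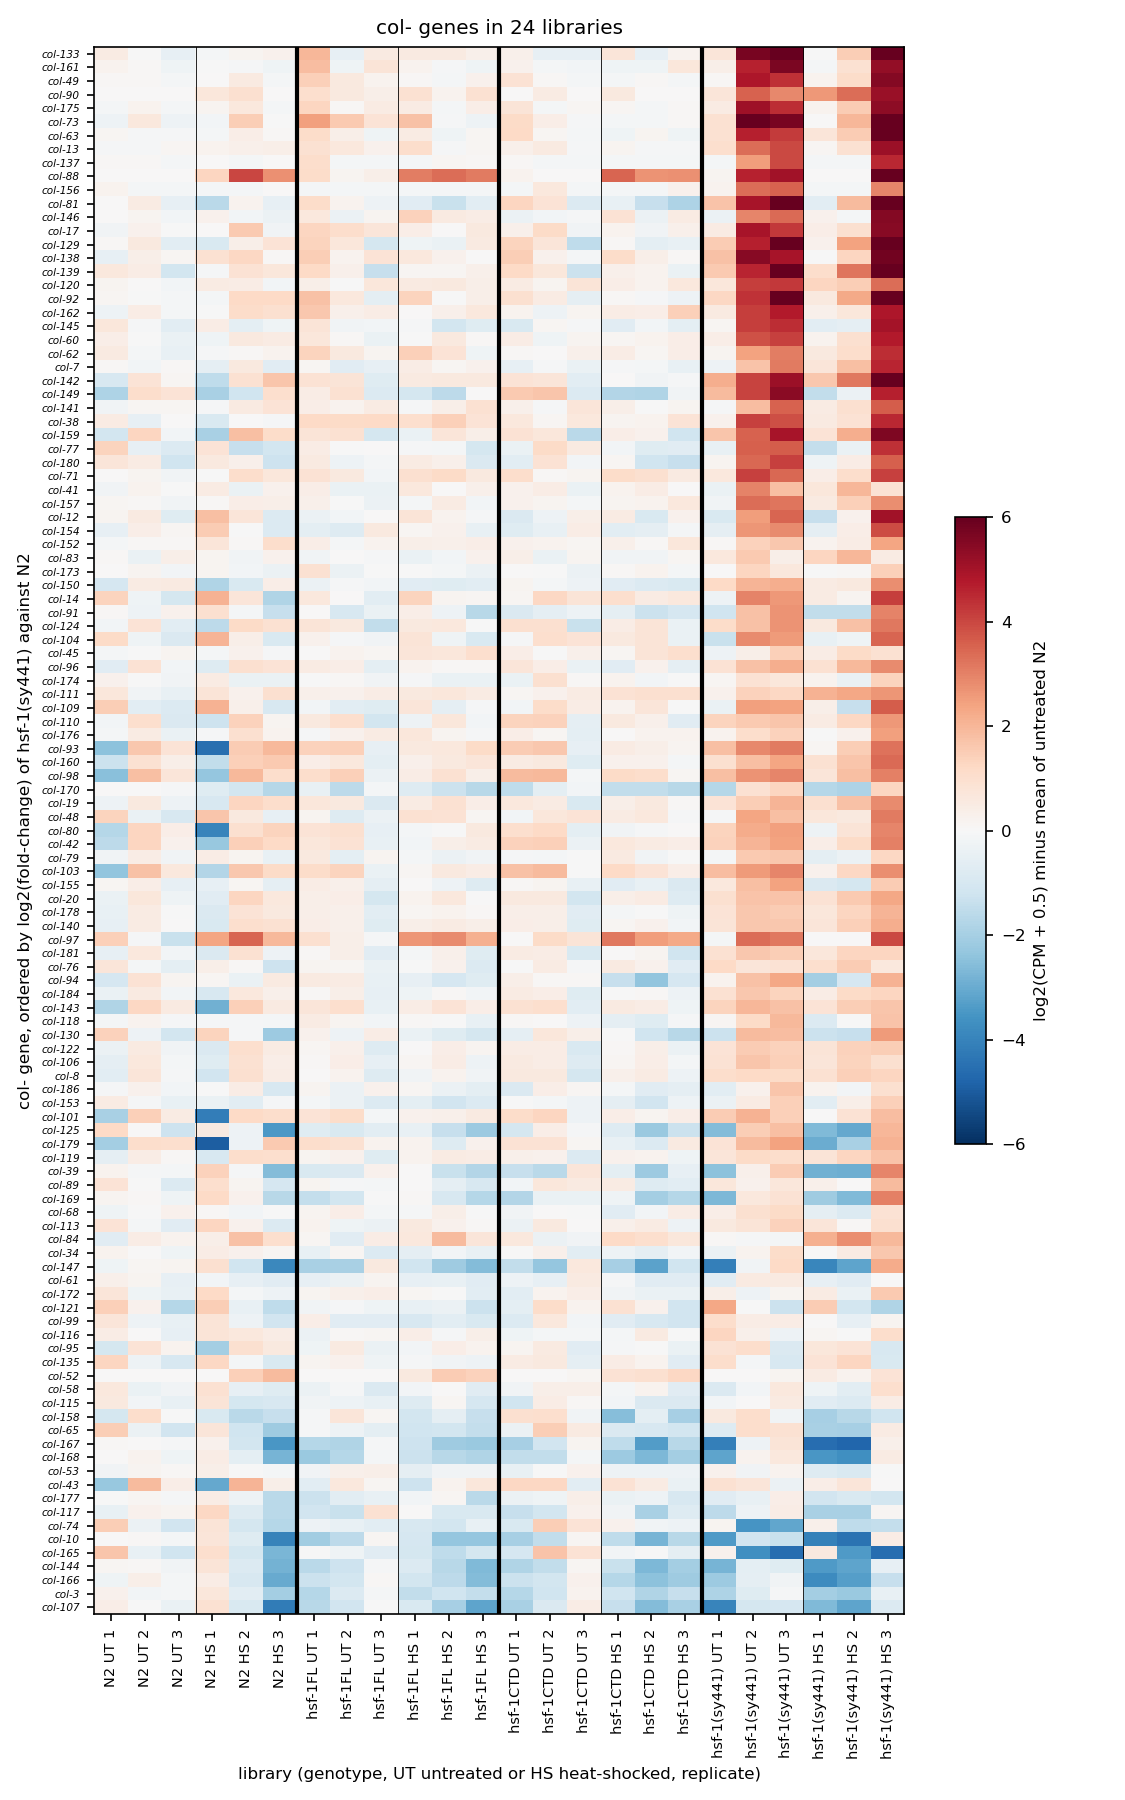
Log2(CPM + 0.5) of the 115 *col-* genes minus the mean of the 3 untreated N2 libraries (red higher, blue lower, colour scale from -6 to 6), with a row per gene ordered by log2(fold-change) of *hsf-1(sy441)* against N2 and a column per library. The 3 dark red columns are *hsf-1(sy441)* untreated replicates 2 and 3 and heat-shocked replicate 3, whereas rows at the bottom are blue in the other 3 libraries of that mutant and in N2 heat-shocked replicate 3.

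Transcripts of other tissues also varied among these libraries. The mean log2 CPM of 50 sperm genes was 2.68, 4.37 and 4.80 in them, against -0.38, -0.77 and 1.23 in the other *hsf-1(sy441)* libraries and -2.43 to -1.09 in N2 and *hsf-1CTD*. The *hsf-1FL* libraries had 0.11 to 3.06 for these sperm genes while their median *col-* difference from untreated N2 was -0.18 to 0.39, and the highest of them in sperm level, untreated replicate 1 (3.06), also had the highest *col-* mean of that genotype (2.42), with 24 members above the highest N2 library and 10 more than 2 times above it. Of the 50 sperm genes, 48 passed as higher in *hsf-1(sy441)* than in N2 and 0 in *hsf-1FL*. In the mean of both treatments 9.71% of all genes were higher in the mutant, and 0.341% passed in either direction in *hsf-1FL*. Within the mutant the sperm levels were highest in the 3 libraries. Hypodermis markers, a list that includes cuticle collagens, had a mean log2 CPM of 3.744, 3.169 and 3.583 in the 3 libraries. They had 2.545, 1.638 and 1.314 in the other mutant libraries and 0.975 to 1.862 in N2. Hypodermal and moulting transcription factors had 3.805, 3.692 and 3.808 in the 3 libraries, against 4.343, 3.721 and 3.484 in the other mutant libraries and 3.44 to 4.274 in N2. Of 7 body-wall muscle markers, 5 were higher in *hsf-1(sy441)* than in N2, against 9.71% of all genes. The mean log2 CPM of the 7 was 8.42, 9.74 and 10.4 in the 3 libraries. It was 9.15, 9.34 and 9.45 in the other mutant libraries and 8.15 to 9.14 in N2, so that untreated replicate 2 was not set apart by them. The mean log2 CPM of 8 germline and oocyte markers was 8.86 and 8.72 in untreated replicate 3 and heat-shocked replicate 3, and that of 2 early embryo markers was -1.15 and -1.21, the lowest of the 24 libraries for both, while untreated replicate 2 had 9.39 and -0.20. The part of these other cells, or of animals of another stage, in the *col-* levels was not tested.

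**Figure D3:**
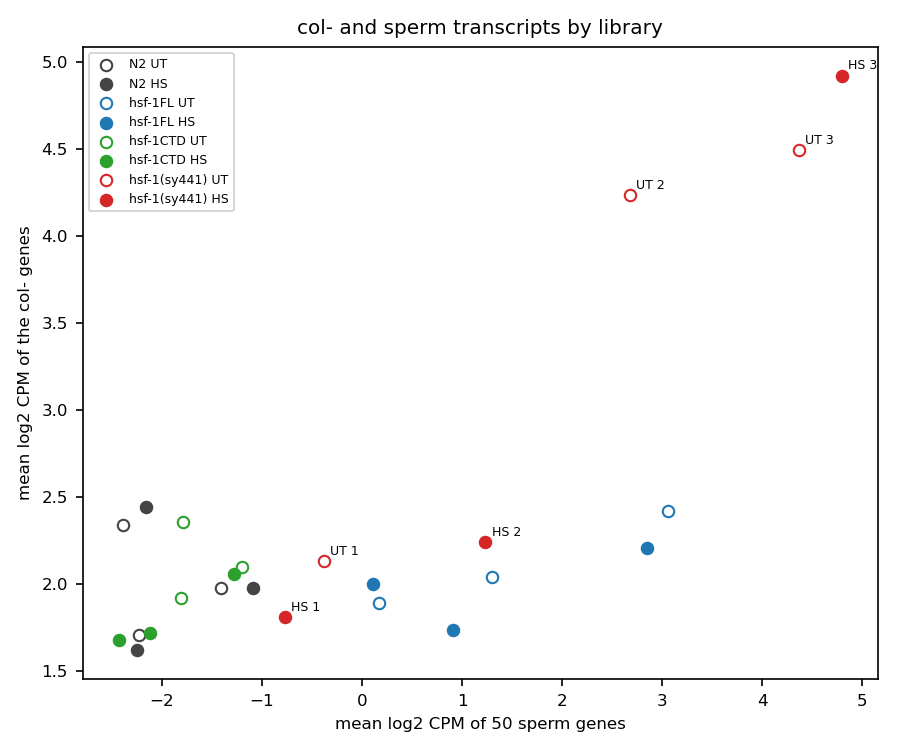
Mean log2 CPM of the 115 *col-* genes (vertical axis) against that of 50 sperm genes (horizontal axis) in each of the 24 libraries, coloured by genotype, open for untreated and filled for heat-shocked. *hsf-1(sy441)* UT 2, UT 3 and HS 3 lie at the upper right, and *hsf-1FL* libraries extend to 3.06 on the sperm axis with *col-* means within the range of N2.

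The comparison of *hsf-1(sy441)* with N2 asked whether loss of HSF-1 function was accompanied by a change in cuticle collagen transcripts. Over the mean of both treatments, 33 of the 115 members were higher in the mutant and 0 were lower at an adjusted P-value below 0.01 in edgeR's quasi-likelihood test. Same-numbered untreated and heat-shocked samples of both genotypes deviated together, and this test took them as independent, so its error can be too small. With surrogate variables 3 were higher, 2 of them among the 33, and 0 passed when only the 12 libraries of both genotypes were fitted. In the fit that gave the 33, 9.71% of all genes tested were higher and 3.52% were lower in the same comparison. The median log2(fold-change) of the members was 1.39, against 0.02 over all genes. Among the 94 members that met the count minimum without the mutant, 20 were higher and 0 lower, with a median of 1.11. Without the 3 libraries that stand apart, 0 members were higher and 1 was lower, 34 had an unadjusted P-value under 0.05, and the median was 0.25.

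*col-120* (WBGene00000694, chromosome IV, 9260610 to 9261787) had the smallest adjusted P-value. As it met the count minimum only with the mutant libraries, its high values there are partly set by the choice of members. It had 0.400, 9.46 and 10.04 CPM in untreated and 0.860, 1.06 and 5.24 CPM in heat-shocked *hsf-1(sy441)*, whereas the 6 N2 libraries had 0 to 0.304 CPM. The mutant and N2 libraries did not overlap, and the 3 high mutant values are those of the libraries that stand apart. The log2(fold-change) was 5.01 ± 0.82 (SE, edgeR adjusted P-value 0.000574) and 2.31 without these libraries.

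*col-142* (WBGene00000715, chromosome V, 6831177 to 6832256) is a more abundant member. Its CPM were 97.8, 354 and 757 in untreated and 64.9, 194 and 1341 in heat-shocked *hsf-1(sy441)*, against 10.6, 36.9 and 22.98 in untreated and 7.03, 39.9 and 67.6 in heat-shocked N2. Only the lowest mutant value fell within the range of N2. The log2(fold-change) was 3.95 ± 0.68 (SE, edgeR adjusted P-value 0.000818) and 1.88 without the 3 libraries.

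*col-81* and *col-139* had a like profile. *col-81* reached 282, 1084 and 765 CPM in the 3 libraries and had 29.5, 5.36 and 33.1 CPM in the other mutant libraries, against 2.48 to 12.3 CPM in N2. *col-139* reached 334, 1203 and 2136 CPM in the 3 libraries and had 41.8, 29.0 and 130 CPM in the others, against 6.19 to 25.1 CPM in N2, so its mutant libraries were all above N2. Their log2(fold-changes) were 5.59 ± 0.97 and 5.17 ± 0.91 (SE, edgeR adjusted P-values 0.000905 and 0.000939), and 1.66 and 1.67 without the 3 libraries.

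*col-90* and *col-38* complete the 6 members with the smallest adjusted P-values. *col-90* had no count in untreated N2 and 141 counts in untreated *hsf-1(sy441)*, which is at least 14.5-fold higher when 3 counts per library are taken as the floor. It too met the count minimum only with the mutant libraries. Its 98 exon bases shared with *let-754* on the opposite strand make its counts uncertain, since the strand setting of the counting is not given in the sources used here. *col-38* had 28.8, 24.6 and 39.1 CPM in the 3 libraries, 1.53, 2.05 and 2.69 CPM in the other mutant libraries and 0.405 to 1.92 CPM in N2, so that outside the 3 libraries it overlapped with N2.

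Of the 33 members that were higher, all 33 exceeded the highest N2 library in each of the 3 libraries that stand apart. In the other mutant libraries 14 (untreated replicate 1), 10 (heat-shocked replicate 1) and 27 (heat-shocked replicate 2) of the 33 did so. The median ratio of the 33 to their N2 mean, on the log2 scale, was 3.69, 3.97 and 4.92 in the 3 libraries and 0.40, 0.14 and 1.11 in the others. The 33 were called for high values in the mutant and the 3 libraries were picked by their *col-* levels. These counts and ratios are therefore partly set by that choice and serve as a description. Of the 33, 20 are among the 94 members. Taking libraries one by one, 4 members were higher in every mutant than in every N2 library, 3.48% of the 115 against 3.43% of all genes. They were *col-139*, *col-120*, *col-83* and *col-63*, of which *col-139* alone is among the 94 that met the count minimum without the mutant. *col-83* shares 163 exon bases with F33A8.4 on the same strand.

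The abundant collagens moved by less. All 8 leading genes had a higher mean in *hsf-1(sy441)* than in N2, but at the chosen threshold *col-178* and *col-184* alone passed, with log2(fold-changes) of 1.22 ± 0.28 and 1.07 ± 0.26 (SE, edgeR adjusted P-values 0.00453 and 0.00569). *col-178* had 1185, 2072 and 1979 CPM per kb in untreated and 1082, 1683 and 2790 in heat-shocked mutants, against 372 to 1182 in N2. The other 6 had log2(fold-changes) between 0.82 (*col-119*) and 1.26 (*col-20*) with adjusted P-values from 0.01 (not below the threshold) to 0.0405 in the same edgeR test. *col-19* had 1.39 ± 0.39 (SE, adjusted P-value 0.0130). Without the 3 libraries the 8 leading genes had log2(fold-changes) from 0.54 to 0.87, still positive, and none passed.

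With the treatments taken apart, the calls were few. In untreated animals 1 member was higher, *col-120*, which met the count minimum only with the mutant libraries, so that 0 of the 94 were higher. It had 319 counts in the 3 mutant libraries and 3 in the 3 N2 libraries, a ratio of 99.9 (95% interval from counting error 33.9 to 487). The background was 0.492% of all genes higher. Its log2(fold-change) was 6.45 ± 1.25 (SE, edgeR adjusted P-value 0.00945), and 2.41 without the 3 libraries, where it did not pass and where 1 untreated mutant library remains, assumed to vary like the other groups. The members' median was 1.57 against 0.04 over all genes, and 56 had an unadjusted P-value under 0.05. In heat-shocked animals 0 members passed in edgeR, against 0.891% of all genes, while 47 had an unadjusted P-value under 0.05, 21 passed in DESeq2 and the members' median was 1.23 against 0.02 over all genes. Untreated mutant and N2 libraries did not overlap for 45 members higher in the mutant (39.1% of the 115, against 15.8% of all genes) and 3 lower (against 13.8%). In heat-shocked animals these were 15 higher (against 11.6%) and 0 lower (against 6.38%). Among the 94 members there were 37 higher and 3 lower in untreated and 8 higher and 0 lower in heat-shocked animals. In untreated animals, 37 of 94 is a larger share than the 15.8% of all genes. In heat-shocked animals, 8 of 94 is a smaller share than the 11.6% of all genes. The 94 thus showed no excess of higher members after heat-shock by this count.

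**Figure D4:**
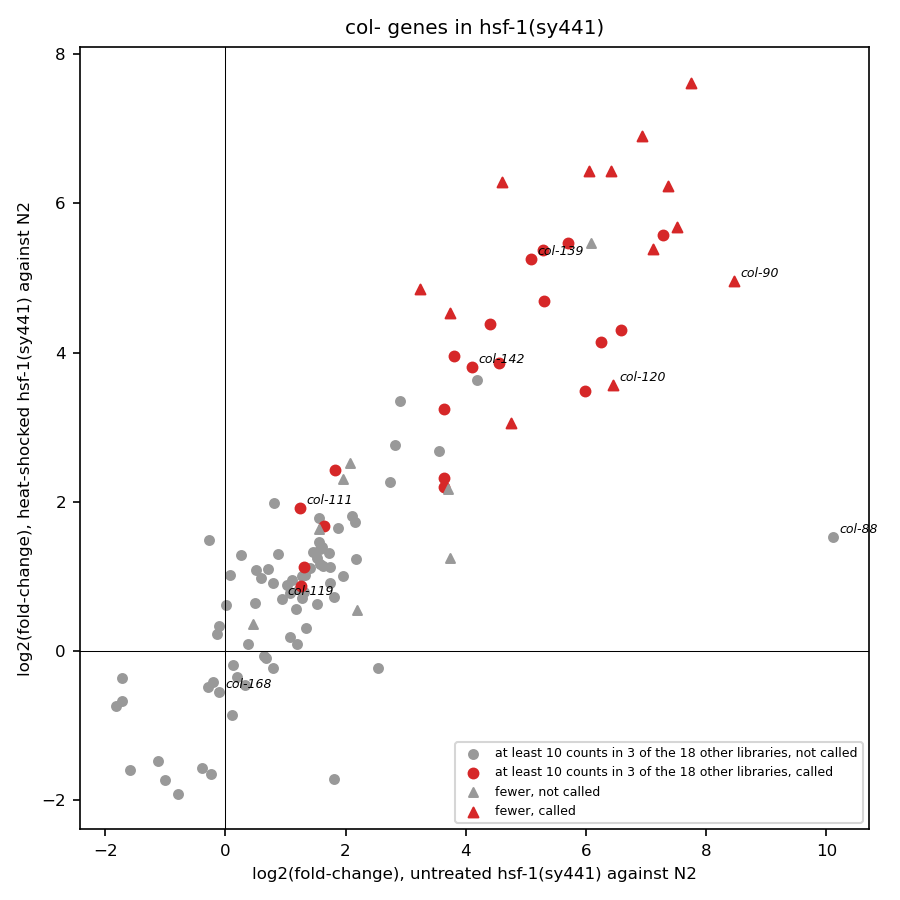
Log2(fold-change) of *hsf-1(sy441)* against N2 for the 115 *col-* genes in untreated (horizontal) and heat-shocked animals (vertical). Red marks the 33 members that passed in the mean of both treatments, circles the 94 members that met the count minimum in the other 18 libraries and triangles the 21 that did not. Most points lie above 0 on both axes, with medians of 1.57 and 1.23.

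A further set of members, picked after their values were seen by their correlation with the second component, went the other way in the mutant libraries that did not stand apart. It comprised *col-107*, *col-144*, *col-10*, *col-3*, *col-166*, *col-167*, *col-117*, *col-168*, *col-147* and *col-39*, with Pearson r from 0.78 to 0.93 over 24 libraries that share the genes' own values. *col-167* (WBGene00000740, chromosome X, 6323488 to 6324393) had 0.534, 0.265 and 0.163 CPM in untreated replicate 1 and heat-shocked replicates 1 and 2 of *hsf-1(sy441)*. It had 14.1, 30.4 and 21.7 CPM in the 3 libraries that stand apart and 17.99, 17.4 and 16.7 CPM in untreated N2. The mutant thus covered a range wider than that of any other genotype, and the difference of its mean from N2 was within the error (log2(fold-change) -0.32 ± 0.89, SE, edgeR adjusted P-value 0.823).

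Its neighbour *col-168* (chromosome X, 6326388 to 6327293) had 0.200, 0.0662 and 0 CPM in the same order and 6.82, 9.38 and 8.31 CPM in the 3 libraries, with 5.95, 6.83 and 4.89 CPM in untreated N2. Its log2(fold-change) in the mutant was -5.70 without the 3 libraries, whereas with all libraries it was -0.33. This is the member counted above as lower without them. The 3 libraries were picked by their *col-* levels and hold the high mutant values of *col-168*. Both its low mean and its small spread without them follow from that choice, so that fit cannot decide on this gene. N2 was itself uneven for these genes, since *col-167* had 20.6, 7.94 and 1.10 CPM in heat-shocked N2. Genes of the opposite sign on this component included *col-95*, *col-119*, *col-8* and *col-143*. On it, N2 replicate 1 lay at the upper end both untreated (11.5) and heat-shocked (15.8), and heat-shocked replicate 2 of *hsf-1(sy441)* at the lower end (-12.7).

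*col-93*, chosen after its values were seen, shows that N2 replicate 1 differed in abundant members too. It had 42.7 CPM in N2 replicate 1 without heat and 9.71 CPM with it, against 420 and 731 CPM in the other untreated and 684 and 898 CPM in the other heat-shocked N2 libraries. The low values came in both treatments, and the lowest of the remaining libraries, *hsf-1CTD* untreated replicate 3, had 165 CPM.

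Members that lie close together often varied together. Of the 115, 22 pairs of neighbours lay within 5000 bases, and their log2 CPM had a median Pearson r of 0.72 over the 24 libraries, against 0.43 over all 6555 pairs of members, as a description. *col-167*, *col-168*, *col-169* and *col-170* follow each other on the X chromosome with r of 0.97, 0.88 and 0.83 between neighbours, while *col-39* and *col-80*, also adjacent, had r of -0.02. *col-159* and *col-160* (r 0.95) overlap on the same strand and share 21 exon bases. The genes most like *col-120* were *col-175*, *col-157* and *col-161* (r 0.91, 0.89 and 0.89 over 24 libraries) and those most like *col-142* were *col-178*, *col-159* and *col-129* (r 0.96, 0.96 and 0.95).

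Part of the collagens named for their body-shape mutants and of the genes that process collagen were higher in *hsf-1(sy441)* as well, where 9.71% of all genes were higher and 3.52% lower. Of 20 body-shape collagens 10 were higher and 0 lower, with a median log2(fold-change) of 2.49. *sqt-2*, a cuticle collagen, had the smallest adjusted P-value of these at 5.89 ± 1.03 (SE, edgeR, 0.000912). Of 13 processing and cross-linking genes 7 were higher and 0 lower, led by *phy-3*, a prolyl 4-hydroxylase, at 2.80 ± 0.51 (SE, edgeR adjusted P-value 0.00119), and *let-268*, the lysyl hydroxylase, at 1.33 ± 0.24 (SE, edgeR adjusted P-value 0.00122).

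Of 3 basement membrane collagens, which belong to no cuticle, 2 were higher, among them *let-2*, a type IV collagen chain, at 1.25 ± 0.20 (SE, edgeR adjusted P-value 0.000508). In the BMP-like DBL-1 pathway, which sets body size, *lon-1* was higher at 1.47 ± 0.22 (SE, edgeR adjusted P-value 0.000246) and 1 of 11 genes was lower. Cuticlins (27 tested) and moulting and other matrix genes (12 tested) had 0 calls in either direction, with 2 and 0 at an unadjusted P-value under 0.05. Without the 3 libraries 0 body-shape collagens and 0 processing genes passed, whereas *let-2* and *lon-1* did, at 0.82 and 1.28 (edgeR adjusted P-values 0.00524 and 0.00575).

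For heat-shock the count of *col-* genes called depended on the model. Over the mean of the 4 genotypes, 4 members rose (*col-52*, *col-88*, *col-84* and *col-111*) and 1 fell (*col-158*), together 4.35% of the members against 16.4% of all genes in edgeR. With surrogate variables 24 passed, including these 5, and without heat-shocked *hsf-1(sy441)* replicate 3 there were 14. The 16.4% belongs to the fit that gave the 5. The share of all genes under the other settings is not given here, so their counts cannot be set against it. In the fit that gave the 5, the members' median log2(fold-change) was -0.15, against 0.01 over all genes. All 5 are among the 94 members that met the count minimum without the mutant. With the replicate number as a block within each genotype, which pairs untreated and heat-shocked samples of the same number, 12 members passed, 5 higher and 7 lower, including the same 5. Without the 3 *hsf-1(sy441)* libraries 8 passed, among them 4 of the 5, while *col-88* could not be tested because it then had no count in groups on both sides of the comparison.

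*col-158* (WBGene00000731, chromosome V, 11829582 to 11831219) had the smallest adjusted P-value. It had 1.37, 7.56 and 3.30 CPM in N2 without heat and 1.52, 0.766 and 0.985 CPM with it. In *hsf-1CTD* it went from 6.94, 7.23 and 2.80 to 0.166, 2.10 and 0.457 CPM, and in *hsf-1(sy441)* from 5.203, 7.40 and 2.78 to 0.463, 0.734 and 1.198 CPM. Untreated and heat-shocked values did not overlap in *hsf-1CTD*, *hsf-1(sy441)* or *hsf-1FL*, but they did in N2. The log2(fold-change) was -2.18 ± 0.36 (SE, edgeR adjusted P-value 0.000139), and the gene shares 149 exon bases with the ncRNA D2023.15 and 23 with *nphp-4*, both on the opposite strand.

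*col-52* (WBGene00000629, chromosome I, 4571192 to 4575038) was almost silent without heat. It had 2 counts in the 12 untreated libraries and 91 in the 12 heat-shocked, a ratio of 49.8 (95% interval from counting error 13.4 to 417). In heat-shocked animals it had 0, 0.836 and 1.39 CPM in N2 and 0.260, 0.952 and 0.816 CPM in *hsf-1FL*. The values were 0.414, 0.467 and 0.686 CPM for *hsf-1CTD*, and 0.199, 0.0815 and 0.374 CPM for *hsf-1(sy441)*. Counts were above 0 in 11 of the 12 heat-shocked libraries. The log2(fold-change) was 5.01 ± 0.77 (SE, edgeR adjusted P-value 0.000176).

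*col-88* (WBGene00000663, chromosome III, 41063 to 41971) also passed over the 4 genotypes. It had no count in untreated N2 and 0.708, 7.59 and 2.90 CPM in heat-shocked N2, at least 18.3-fold higher. In *hsf-1FL* it went from 0.559, 0.0630 and 0.132 to 3.76, 4.58 and 3.86 CPM, and in *hsf-1CTD* from 0.0723, 0 and 0 to 5.05, 2.72 and 2.90 CPM. All 9 heat-shocked libraries of these genotypes lay above all 9 untreated ones, with 470 against 12 counts and a ratio of 42.1 (95% interval from counting error 23.9 to 82.1).

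In *hsf-1(sy441)*, *col-88* had 0.0667, 11.7 and 16.1 CPM untreated and 0, 0 and 32.0 CPM after heat-shock. Its mutant values were high in the 3 libraries that stand apart, treated or not, and at most 1 count in the other 3. The difference in heat response between the mutant and N2 was -8.59 ± 3.42 (log2 scale, SE, edgeR adjusted P-value 1.0, unadjusted 0.0221), so a difference was not established by this test. DESeq2 gave -22.5 with an adjusted P-value of 2.5e-10, a fit in which the untreated N2 group is all 0. Over the 4 genotypes the log2(fold-change) was 4.98 ± 1.13 (SE, edgeR adjusted P-value 0.00313). Without heat-shocked *hsf-1(sy441)* replicate 3 the test over the 4 genotypes can give no answer for *col-88*, since both untreated N2 and the heat-shocked mutant are then at 0 counts.

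*col-97* (WBGene00000672, chromosome III, 12992405 to 12993707), named after its values were seen for its likeness to *col-88*, did not pass over the 4 genotypes (log2(fold-change) 1.69 ± 0.50, SE, edgeR adjusted P-value 0.0158). It had 5.61, 1.66 and 0.413 CPM in N2 without heat and 11.3, 25.3 and 8.46 CPM with it, without overlap. In *hsf-1(sy441)* it had 1.60, 22.9 and 20.1 CPM untreated and 1.85, 1.79 and 34.8 CPM after heat-shock, high in the same 3 libraries. Its heat response in the mutant differed from that in N2 by -2.76 ± 1.39 (SE, edgeR adjusted P-value 1.0), within the error.

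*col-84* and *col-111* passed over the 4 genotypes, and neither passed in the mutant alone in edgeR without a block. *col-84* (chromosome II, 11868534 to 11869682) had 0.334, 0.257 and 0.242 CPM in untreated and 2.98, 5.05 and 2.54 CPM in heat-shocked *hsf-1(sy441)*, the highest levels of any genotype. In N2 it had 0, 0.597 and 0.413 CPM against 0.506, 2.16 and 1.10 CPM, which overlap. It lies within *npp-3* on the opposite strand without sharing exon bases with that gene. It does share 102 exon bases with the ncRNA K12D12.9 on the opposite strand, which had at most 4 counts in a library. The log2(fold-change) of *col-84* over the genotypes was 2.28 ± 0.48 (SE, edgeR adjusted P-value 0.00134).

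*col-111* (chromosome IV, 4655791 to 4657974) had 1.33, 3.41 and 3.15 CPM in untreated and 5.89, 7.01 and 9.13 CPM in heat-shocked *hsf-1(sy441)*, and 1.92, 0.796 and 0.619 against 2.08, 1.32 and 2.43 CPM in N2. The mutant groups did not overlap and those of N2 did. Over the genotypes it rose by 0.84 ± 0.20 (log2 scale, SE, edgeR adjusted P-value 0.00394). It shares 60 exon bases with *psr-1* on the opposite strand, whose own log2(fold-change) was 0.31, so part of its reads could belong to that gene. In the mutant, with the replicate number as a block, *col-111* (1.55) and *col-155* (-1.81) passed, at edgeR adjusted P-values of 0.0091 and 0.0034, against 0 members without the block.

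**Figure D5:**
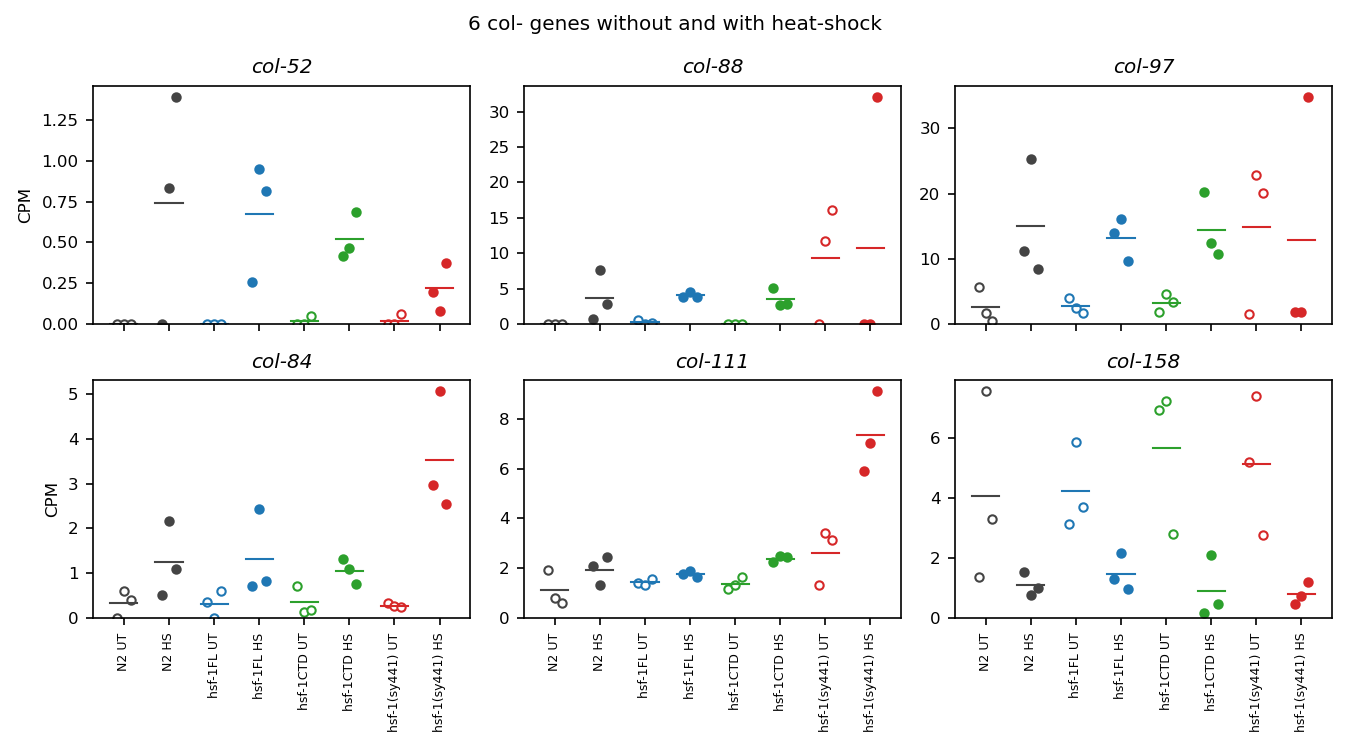
CPM (linear axis from 0) of 6 *col-* genes in each of the 24 libraries, open for untreated (UT) and filled for heat-shocked (HS), with the mean of 3 as a bar. *col-52*, *col-84*, *col-88* and *col-111* rose and *col-158* fell over the 4 genotypes, and *col-97* was added for its likeness to *col-88*. For *col-88* and *col-97* the high *hsf-1(sy441)* points are UT 2, UT 3 and HS 3.

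Taken genotype by genotype, 0 members passed for heat-shock in any of the 4. The share of all genes that passed was 0.669% for N2, 0.819% for *hsf-1FL*, 0.964% for *hsf-1CTD* and 1.72% for *hsf-1(sy441)*. The members with an unadjusted P-value under 0.05 numbered 6, 5, 6 and 5, and DESeq2 called 1, 0, 2 and 3. The smallest adjusted P-values in edgeR were 0.0578 and 0.0487 for *col-52* in N2 and *hsf-1FL*, 0.0522 for *col-158* in *hsf-1CTD* and 0.0346 for *col-111* in *hsf-1(sy441)*. The members' median log2(fold-change), in the same order of genotypes, was 0.17, -0.21, -0.51 and -0.12. Libraries of both treatments did not overlap for 4 members higher and 1 lower in N2, where 8.52 and 6.46% of all genes were so separated, and for 6 higher and 7 lower in *hsf-1CTD*, where it was 15 and 15.7%. In *hsf-1FL* there were 6 higher and 11 lower, against 12.2 and 13.5% of all genes, and in the mutant 3 higher and 3 lower, against 10.7 and 9.65%.

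Some genes of collagen processing and of hypodermal control fell after heat-shock, where 16.4% of all genes passed in either direction. The share of all genes that fell is not given here, so the counts of falling genes below are a description. Of 13 processing and cross-linking genes 4 fell and 0 rose. They were *dpy-31*, a protease that trims cuticle collagens, at -1.25 ± 0.16, *bli-3*, the dual oxidase that cross-links them, at -0.63 ± 0.11, *mlt-7*, a peroxidase that acts with it, at -1.36 ± 0.25, and *phy-2*, a prolyl 4-hydroxylase subunit, at -0.96 ± 0.19 (log2, SE, edgeR adjusted P-values 1.07e-05, 0.000218, 0.000363 and 0.000738). In the DBL-1 pathway 2 of 11 fell, with *lon-1* at -1.54 ± 0.16 (SE, edgeR adjusted P-value 7.49e-07), and among 11 hypodermal and moulting transcription factors 3 fell. Of 27 cuticlins 1 rose and 2 fell, and of 20 body-shape collagens 0 passed, with 2 at an unadjusted P-value under 0.05. Markers of intestine and of neurons fell in 2 of 7 and 2 of 9 cases, and the part of these tissues in the lists above was not tested.

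For over-expression of *hsf-1* in neurons, edgeR called 0 *col-* genes with all libraries, whereas other settings called a few. In *hsf-1FL* against N2, 0 of 115 members passed in untreated or heat-shocked animals, with 0.0197% of all genes called in each, nor did any pass in the mean of both, with 0.341%. The same held for *hsf-1CTD*, with 0.0197, 0.0131 and 0.0852% of all genes called. At an unadjusted P-value under 0.05 there were 1, 1 and 2 members for *hsf-1FL* and 0, 1 and 0 for *hsf-1CTD*, and DESeq2 called 1, 0 and 1 and 1, 1 and 1. With surrogate variables 0, 1 and 7 were called for *hsf-1FL* and 0 in each for *hsf-1CTD*, and with the replicate number as a block across genotypes 0 in each for both. The members' median log2(fold-change) was -0.001 and 0.09 in untreated animals for *hsf-1FL* and *hsf-1CTD*, and -0.38 and -0.49 in heat-shocked animals, where 91 and 97 of the 115 were below 0. In the mean of both treatments it was -0.17 for each, and over all genes these medians lay between -0.04 and 0.003.

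*col-38* came closest in *hsf-1FL*. It had 3.50, 3.34 and 3.42 CPM in untreated and 2.98, 4.15 and 2.52 CPM in heat-shocked *hsf-1FL*, against 1.92, 0.729 and 1.24 and 0.405, 1.25 and 1.16 CPM in N2. All 6 *hsf-1FL* libraries were above all 6 of N2. The log2(fold-change) was 1.59 ± 0.65 (SE, edgeR adjusted P-value 0.279) with a spread estimated over all 24 libraries. Without the 3 *hsf-1(sy441)* libraries it was 1.58. These libraries were picked by their *col-* levels and *col-38* is high in them. A smaller estimated spread without them follows from that choice, so a P-value from that fit cannot decide on this gene. *col-90* (2.75 ± 1.22) and *col-34* (-0.59 ± 0.32) had the next smallest P-values in *hsf-1FL* (SE, edgeR adjusted P-values 0.352 and 0.528). In *hsf-1CTD*, *col-45* (1.08 ± 0.53), *col-166* (-1.05 ± 0.52) and *col-144* (-1.26 ± 0.63) had the smallest, all at an adjusted P-value of 1.0 (SE, edgeR).

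The heat response itself was compared between each genotype and N2. For the full-length transgene, the deleted transgene and the mutant, 0 members passed in edgeR, and 0% of all genes did. The members at an unadjusted P-value under 0.05 were 0, 0 and 1, and DESeq2 called 1 in each. For *hsf-1FL*, *col-52* and *col-156* could not be tested in edgeR, having no count in groups on both sides. The members' median difference in response was -0.37, -0.68 and -0.32, set against -0.04, -0.05 and 0.02 over all genes, and all 3 comparisons share the N2 libraries.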

How the data were processed

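RNA was made into libraries with a Kapa mRNA Hyper Prep kit from 24 samples. Per the labels, the authors trimmed reads with Trim Galore 0.6.7-1, aligned them with STAR 2.7.10a to WBcel235 and made the deposited table of counts per gene with featureCounts of Subread 2.0.3. The counts are whole numbers without normalization, and strand and multi-mapping settings are not given in the sources used here. Precision follows from 11215696 to 19794446 counts per library, and intervals from counts cover counting error only. Of 46934 gene IDs, 44113 had an entry in the name table. All 24 value columns were matched to samples, and 0 were left unassigned.

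The 15256 genes that reached 10 counts in 3 or more libraries were fitted in R 4.3.3 with edgeR 4.0.16 (TMM factors 0.896 to 1.10, 8 condition means, all 24 libraries, quasi-likelihood F-test, common biological coefficient of variation 42.2%). P-values were adjusted by Benjamini-Hochberg over all genes, and a gene was called at an adjusted P-value below 0.01. The SE is the size of the log2(fold-change) over the square root of F. CPM are scaled by TMM. DESeq2 1.42.0 and sva 3.50.0 served alternatives. The code was tested on simulated data. In averages over groups and in differences of responses, edgeR gives a P-value near 1 by construction where groups on both sides have no count, which touched 0 to 2 members per comparison with all libraries.

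The 8 most and 3 least abundant members of untreated N2, *col-19* and *col-2*, up to 6 called members per direction by adjusted P-value, the 3 smallest P-values where none was called and up to 5 genes of other lists were to be named. Members, lists and rules were chosen with earlier results of these data known. Deviations of untreated and heat-shocked samples of the same number correlated in every pair of N2, *hsf-1FL* and *hsf-1(sy441)* (r 0.246 to 0.813). In *hsf-1CTD* r ran from -0.048 to 0.272, which reaches the lower of those values. The block within each genotype paired the treatments in every genotype, *hsf-1CTD* included, whereas the main model used no pairing. Same-numbered N2 and *hsf-1FL* samples also correlated within each treatment (0.192 to 0.561), and a block across genotypes was run as an alternative. Promoter motifs and protein identities were not analysed here.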

Additional observations from a re-analysis of the deposited data

How the results depend on the processing

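The count of members higher in *hsf-1(sy441)* than in N2 over both treatments (33) depended most on the libraries and on how spread was modelled. It was 50 in DESeq2, 57 at an adjusted P-value below 0.05, 15 among genes with 10 counts in every library, 20 among the 94 members, 3 with surrogate variables and 0 when only those 12 libraries were fitted, while without the 3 libraries that stand apart 0 were higher and 1 lower. All 33 were among those of DESeq2, and 2 were among those with surrogate variables. In untreated animals (1) it was 28 in DESeq2, 25 at 0.05, 9 without a filter, and 0 with library size only, the filter in every library, only the libraries compared, the 94 members, or the 3 libraries left out. In heat-shocked animals (0) it was 21 in DESeq2, 16 at 0.05, 4 without a filter and 1 with surrogate variables. Leaving out each library in turn gave 14 to 46, 0 to 19 and 0 to 3 in these comparisons. The count over both treatments was 20 without N2 untreated replicate 3 or heat-shocked replicate 3 and 14 without *hsf-1(sy441)* heat-shocked replicate 3.

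For heat-shock over the 4 genotypes (5) the counts were 8 in DESeq2, 8 at 0.05, 0 with the filter in every library, 24 with surrogate variables, 12 with the replicate block within each genotype, 8 without the 3 libraries, and 5 to 14 with single libraries left out (8 without N2 heat-shocked replicate 1, 14 without *hsf-1(sy441)* heat-shocked replicate 3). In N2 (0) there was 1 in DESeq2, with surrogate variables and without the 3 libraries, and 0 to 1 with single libraries left out. In *hsf-1FL* (0) there was 1 at 0.05, and 0 to 1 with single libraries left out. In *hsf-1CTD* (0) there were 2 in DESeq2, 6 with surrogate variables, 1 with only the libraries compared and 1 without the 3 libraries. In *hsf-1(sy441)* (0) there were 3 in DESeq2, 8 with surrogate variables, 2 with the replicate block within each genotype and 3 at 0.05, and 0 to 3 with single libraries left out. For *hsf-1FL* against N2 DESeq2 called 1 untreated and 1 in the mean, and surrogate variables 1 heat-shocked and 7 in the mean, with 1 in the mean without the 3 libraries. For *hsf-1CTD* DESeq2 called 1 untreated, 1 heat-shocked and 1 in the mean, and 1 for the heat response of each genotype against N2. A block on the replicate number across all genotypes gave 35 for *hsf-1(sy441)* and 5 for heat-shock.

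Some log2(fold-changes) turned in sign. For *col-88* in heat-shocked *hsf-1(sy441)* (0.20) it was -0.17 with the replicate block, -1.71 with the block within each genotype, -1.94 with surrogate variables, -3.16 without the 3 libraries and -10.1 to 0.86 with single libraries left out. For *col-97* there (-0.22) it was 0.16 without the 3 libraries and -3.04 to 0.30 with single libraries left out. For *hsf-1(sy441)* against N2, leaving out the 3 libraries gave -0.64 for *col-145*, -1.76 for *col-146*, -2.58 for *col-137* and -4.83 for *col-169*, and surrogate variables gave -1.497 for *col-137* and -2.47 for *col-169*. With single libraries left out, *col-167* ranged from -2.83 to 0.29, *col-168* from -3.31 to 0.21 and *col-169* from -1.97 to 1.23. For heat-shock over the 4 genotypes *col-88* gave no test without heat-shocked *hsf-1(sy441)* replicate 3 or without the 3 libraries. The causes were not tested. The 3 libraries, the block within each genotype and the 94 members were chosen after seeing the data. Counts under the other settings are of members only. The share of all genes called under each of those settings is not given here, so such a count shows no excess by itself.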

Other observations

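The 41 *col-* genes below the count minimum held few reads. *col-123* (114 counts over the 24 libraries) and *col-36* (108) had the most, and *col-171* and *col-47* had 0, which allows up to 3 counts per library. In *col-36*, 80.6% of the counts came from the 6 *hsf-1(sy441)* libraries and 74 of them from heat-shocked replicate 3, a library that also stood apart for the members. In *col-123* the mutant's share was 27.2%, close to the 6 in 24 libraries that it makes up. *col-151* (35 counts, 8.57% in the mutant) and *col-108* (22 counts, 4.55%) had a smaller share there. Both had at most 6 counts in any library, too few to show a difference between genotypes. These genes were picked by their values, and no test was made on them.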
